A study of Mus musculus with 4 samples.

Results

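The genes described here encode the receptors through which cultured blood progenitors sense stem cell factor (SCF), interleukin-3 (IL-3), interleukin-6 (IL-6) and the colony-stimulating factors (CSFs), together with 2 feedback genes of the same pathways. They are 10 genes of the 43629 in the count tables: Kit, Il3ra, Csf2ra, Csf2rb, Csf2rb2, Csf3r, Il6ra, Il6st, Socs3 and Cish, listed by symbol because they serve the cytokines of the culture medium and the related CSFs. The RNA came from CD117-enriched hematopoietic stem and progenitor cells (HSPCs) of C57Bl/6 mice that were homozygous for a floxed Chaf1b allele and 8 to 12 weeks old. Chaf1b encodes a subunit of the histone chaperone CAF-1. Control HSPCs received the empty retroviral vector MIGR1 and Chaf1b-deleted HSPCs received MIGR1 carrying Cre recombinase, with 2 libraries in each group and RNA taken at 48 h from cells sorted for the eGFP of the vector. All 4 cultures held SCF at 50 ng/mL and IL-3 at 10 ng/mL. IL-6 is given as 20 ng/mL in the sample labels and at a lower concentration in the methods. CD117 is the product of Kit, so the cells had been enriched for 1 of the receptors described, and the enriched cells are a mixture of progenitor types. The labels do not say whether the 2 libraries of a group came from separate animals or cultures, so p-values measure only the spread between these libraries, which for the controls may be technical.

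As background, cytokine receptors of this kind have no single design. KIT is a receptor tyrosine kinase that phosphorylates itself when SCF binds. The receptors for IL-3 and GM-CSF pair a specific alpha chain, which recognizes the cytokine, with a signaling beta chain, while the G-CSF receptor pairs with itself and the IL-6 receptor alpha chain recruits the shared chain gp130. All but KIT depend on bound JAK kinases that activate STAT factors, mainly STAT5 for IL-3 and GM-CSF and STAT3 for IL-6 and G-CSF. STAT factors in turn switch on Cish and Socs3, whose products dampen the signal. In bone marrow these receptors carry the survival and expansion signals of myeloid progenitors.

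Between 18468637 and 25409926 reads per library were counted on genes. The deletion was visible in the counts: Chaf1b had 80.3 and 57.9 CPM (counts-per-million scaled to the total on genes) in the controls and 16.1 and 17.9 in the deleted libraries. Chaf1b-deleted replicate 1 stood apart from the other 3 libraries. It had 7905 counts of Xist, the RNA of the inactive X, against 23 to 33 elsewhere, and 3 counts over 4 Y-linked genes against 5805 to 7771, so the deleted libraries did not come from the same animals. The summed level of 15 interferon-stimulated genes reached 1790 CPM there, against 256 to 292 CPM elsewhere, so each result is also given without it where that changes the call or turns the direction. Among marker lists, the 8 stem and progenitor genes included Kit. They summed to 958 and 922 CPM in the controls and 762 and 897 CPM after deletion. Myb, the most abundant of them, had 475 and 492 CPM in the controls and 298 and 335 CPM after deletion. Both deleted libraries lay above both controls for 3 of the 8 (Cd34, Ly6a and Flt3) and below for Myb alone. Over all tested genes these shares were 21.4% and 22.9%. The 10 neutrophil genes, led by S100a9, summed to between 51100 and 70600 CPM in all libraries. The 9 lymphoid markers, led by Thy1, summed to 146 and 107 CPM in the controls and 145 and 162 CPM after deletion. Cd3e and Ncr1 were under 1 CPM in every library. Of the 7 lymphoid markers tested, 6 had both deleted libraries above both controls and 0 below, against the same 21.4% and 22.9%. By the rule given below, 0 of them were called.

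None of the 10 genes was called different between the groups. A gene was called when it differed by at least 1.5-fold with an adjusted p-value under 0.05 in edgeR's quasi-likelihood (QL) test, which called 0.37% of the 16500 tested genes higher and 0.00606% lower. All 10 genes passed the expression filter, and 0 were called higher and 0 lower. Their adjusted p-values ran from 0.242 to 0.921. At an unadjusted p under 0.05, 4 of the 10 were higher (Il3ra, Csf2rb2, Csf3r and Il6ra) and 0 were lower, where the same rule took 9.15% of all genes as higher and 3.1% as lower. edgeR's exact test, its likelihood ratio test and DESeq2 also called 0 of the 10, while they called 3.25%, 3.53% and 2.86% of all genes higher and 0.224%, 0.242% and 0.206% lower. Without the filter on low counts, 2 of the 10 were called higher (Csf2rb2, adjusted p = 0.00316, and Il3ra, adjusted p = 0.0449), in a fit that called 2.57% of 31399 genes higher and 0.252% lower. In bulk RNA, a lower level per cell and fewer cells of the type that expresses a gene cannot be told apart, and the same holds for higher levels.

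The 10 genes differed in whether the groups overlapped. Of the 10 genes, 6 had both Chaf1b-deleted libraries above both controls (Il3ra, Csf2ra, Csf2rb, Csf2rb2, Csf3r and Il6ra), 0 had both below, and 4 overlapped (Kit, Il6st, Socs3 and Cish). Among all tested genes, the deleted pair exceeded the control pair for 21.4% and fell short of it for 22.9%. These counts rest on CPM without the TMM scaling factors of the test (0.925 to 1.06). Csf2ra separated by only 1.04-fold, so its place among the 6 depends on the scaling. The 6 genes are the alpha chains for IL-3, GM-CSF and IL-6, both beta chains and the G-CSF receptor. The 4 that overlapped are the SCF receptor, the shared signaling chain of the IL-6 family and both feedback genes. The median log2 fold change of the 10 was 0.43, against -0.03 for all tested genes. The plot of CPM by library shows the separation gene by gene.

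**Figure D1:**
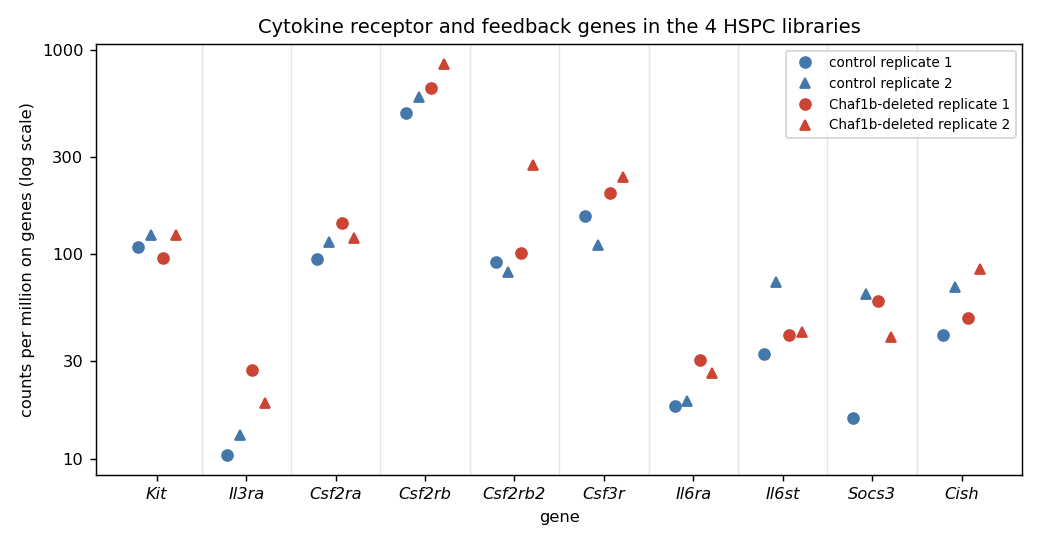
CPM (log scale) of the 10 genes in each of the 4 HSPC libraries. Blue symbols are the 2 controls and red symbols the 2 Chaf1b-deleted libraries, with circles for replicate 1 and triangles for replicate 2. For Kit the controls lie at 109 and 124 CPM and the deleted libraries at 95.6 and 124 CPM, while for Csf3r both deleted libraries, at 200 and 239 CPM, lie above both controls.

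Levels can be set between genes only per kilobase of exon (RPKM, with exon lengths from the NCBIM37 annotation). On that scale Csf2rb was the highest of the 10 in control HSPCs at 106 ± 13.6 RPKM (SD, n = 2), followed by Csf2ra at 56.7 ± 7.98 (SD, n = 2) and Csf3r at 32 ± 7.3 (SD, n = 2). The values of each of these 3 stood apart from those of the next gene in both controls. Kit followed at 20.1 ± 1.81 RPKM and Csf2rb2 at 18.8 ± 1.49 (SD, n = 2 each), and the ranges of this pair overlapped. Below them Socs3, Il6st, Cish and Il3ra lay at means between 8.38 and 13.8 RPKM, and each overlapped its neighbor in the order. Il6ra was the lowest at 5.56 ± 0.204 RPKM (SD, n = 2) and stood apart from Il3ra. The exon length joins all annotated exons of a gene, so it can exceed that of the transcript made and lower the RPKM. For Cish it was 6419 bases, most of the gene from 107198357 to 107205115, so its place in the order is uncertain. The lengths also include stretches that recur elsewhere in the genome (30.6% for Csf2rb, 32% for Csf2rb2 and 29.3% for Csf3r). In Chaf1b-deleted HSPCs the 3 highest means kept their order, Csf2rb at 149 ± 28.8, Csf2ra at 71.1 ± 8.94 and Csf3r at 53 ± 6.68 RPKM (SD, n = 2 each). Csf2rb2, at 21.9 and 59 RPKM, overlapped Csf3r, at 48.3 and 57.7 RPKM. Il6st had the lowest mean there, 7.88 ± 0.142 RPKM (SD, n = 2), and its values of 7.78 and 7.98 overlapped those of Il6ra (9.14 and 7.87) and Cish (7.63 and 13.2).

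Kit, the receptor for SCF, occupies bases 75970941 to 76052747 of chromosome 5 in mm9. Its level was 109 and 124 CPM in the controls and 95.6 and 124 CPM in the Chaf1b-deleted libraries. The lowest value was in deleted replicate 1, and the other deleted library matched the higher control. Its log2 fold change was -0.08 (standard error 0.2, 95% interval -0.54 to 0.39, QL adjusted p = 0.921), an interval that lies within 1.5-fold of no change on either side. Leaving out each library in turn gave -0.16 to 0.00116. Of the other receptor tyrosine kinases of progenitors, Flt3, the receptor for FLT3 ligand, had 4.66 and 5.31 CPM in the controls and 19.3 and 22.7 CPM after deletion and was called higher (log2 fold change 2.09, QL adjusted p = 0.0383), although the call was lost under 5 alternatives that are given with the other receptors. Kit and Flt3 were not compared with each other by a test.

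Il3ra encodes the alpha chain of the IL-3 receptor and lies on chromosome 14 from 15179009 to 15188004. It had 10.4 and 13 CPM in the controls and 27.1 and 18.8 CPM in the deleted libraries. Both deleted libraries were higher, the lower of them 1.45-fold above the higher control. The log2 fold change was 1.02 (standard error 0.31, 95% interval 0.29 to 1.75, QL adjusted p = 0.242), with values between 0.61 without Chaf1b-deleted replicate 1 and 1.35 without Chaf1b-deleted replicate 2. Csf2ra, the alpha chain of the GM-CSF receptor, lies on chromosome 19 from 61300305 to 61304321 and had 94.5 and 115 CPM in the controls and 143 and 120 CPM after deletion. Its groups did not overlap on this scale, but the lower deleted library exceeded the higher control only 1.04-fold, a gap that depends on the scaling. The log2 fold change of 0.36 (standard error 0.23, 95% interval -0.18 to 0.91, QL adjusted p = 0.596) dropped to 0.11 without Chaf1b-deleted replicate 1. The summed level of 12 immediate early and stress genes followed the same order of libraries as both alpha chains, with 394 and 574 CPM in the controls and 1510 and 1030 CPM after deletion, and its part in their levels was not tested.

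Mice carry a pair of beta chain genes. Csf2rb encodes the common chain used by IL-3, GM-CSF and IL-5, and Csf2rb2 encodes a chain that works with IL-3 only. They lie 20.4 kb apart on chromosome 15 of mm9, Csf2rb2 from 78112947 to 78136052 on the minus strand and Csf2rb from 78156420 to 78184277 on the plus strand. Their coding sequences are 95.2% identical over 2631 aligned bases, with an identical run of up to 242 bases. Of the 31-base stretches in the exons of Csf2rb, 26.9% also occur in exons of Csf2rb2, and 29.5% the other way round. Only reads that lie wholly in shared sequence cannot be assigned to either gene. Read length was not examined, so these shares are not shares of reads. The split of counts between the pair is less certain than their sum. The aligned 30-base coding stretch in which the pair differs most is shown because reads like these tell the genes apart. Capitals mark the 10 bases that differ, both sequences run 5′ to 3′ along the coding strand, and they lie at chr15:78169323-78169352 (plus strand) and chr15:78124839-78124868 (minus strand) of mm9.
Csf2rb: ccctaTacacgattttcCaTCACaAaCGaA
Csf2rb2: ccctaCacacgattttcTaATGGaGaTAaC

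Csf2rb was the most abundant of the 10 genes, with 491 and 588 CPM in the controls and 651 and 858 CPM in the deleted libraries. Both deleted libraries were above both controls, the lower by 1.11-fold. Its log2 fold change was 0.5 (standard error 0.24, 95% interval -0.06 to 1.06, QL adjusted p = 0.47). Csf2rb2 had 91.9 and 82.1 CPM in the controls and 102 and 273 CPM after deletion. The groups did not overlap, but the 2 deleted libraries differed 2.69-fold from each other and only replicate 2 was far from the controls. Csf2rb2 differed by 1.09 on the log2 scale (standard error 0.37, 95% interval 0.23 to 1.95, QL adjusted p = 0.289). It was 0.37 (adjusted p = 0.362) without Chaf1b-deleted replicate 2, and 1.57, a called increase (adjusted p = 0.02), without Chaf1b-deleted replicate 1, where the lone deleted library is taken to vary like the controls. Markers of erythroid cells and megakaryocytes also had their highest sum in Chaf1b-deleted replicate 2. The 9 genes, led by Itga2b, summed to 141 and 117 CPM in the controls and 155 and 260 CPM after deletion. Epor, 1 of the 9, did not follow the sum. It had 9.72 and 4.57 CPM in the controls and 2.97 and 7.2 CPM after deletion, so it was highest in control replicate 1. All 9 were tested, 0 were called in the QL test, 4 had the deleted pair above both controls and 0 below (21.4% and 22.9% of all tested genes), and none was at 0 in all libraries. Their part in the level of Csf2rb2 was not tested.

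The share of Csf2rb2 in the counts of the pair was 15.8% in control replicate 1 (15.2 to 16.4) and 12.3% in control replicate 2 (11.8 to 12.8). It was 13.5% (13 to 14) in Chaf1b-deleted replicate 1 and 24.2% (23.6 to 24.8) in replicate 2. The brackets hold 95% Wilson intervals, which cover counting error only. Deleted replicate 1 thus lay between the controls and replicate 2 above both. Summed over the pair, the level was 583 and 670 CPM in the controls and 753 and 1130 CPM after deletion, a log2 fold change of 0.6 (standard error 0.26, QL adjusted p = 0.409). With the pair counted as 1 feature, 0 of the remaining genes of the list were called.

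**Figure D2:**
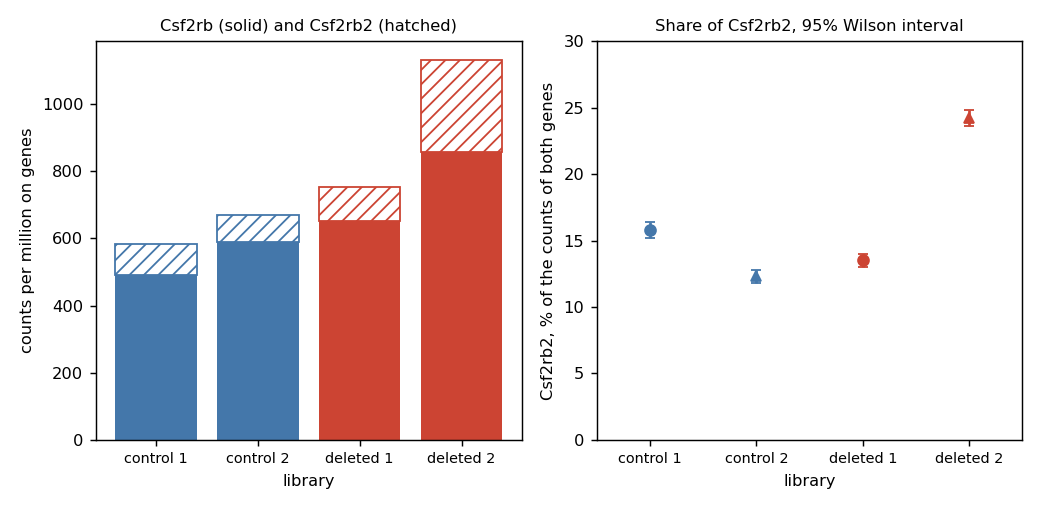
Left, CPM of Csf2rb (solid) and Csf2rb2 (hatched) stacked for each library, blue for control and red for Chaf1b-deleted. Right, the share of Csf2rb2 in the counts of both genes in percent with 95% Wilson intervals. Chaf1b-deleted replicate 2 stands at 24.2%, above the range of 12.3% to 15.8% that holds the remaining libraries.

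Csf3r encodes the receptor for G-CSF, the main cytokine of neutrophil production, and lies on chromosome 4 from 125701794 to 125722219. It had 154 and 111 CPM in the controls and 200 and 239 CPM in the deleted libraries. Both deleted libraries were higher, the lower by 1.3-fold. The fitted log2 fold change was 0.74 (standard error 0.23, 95% interval 0.2 to 1.29, QL adjusted p = 0.252). It ranged from 0.52 without control replicate 2 to 1.01 without control replicate 1, so the spread between the controls moved it most. Cut into overlapping 31-base stretches, 29.3% of the exonic sequence recurs at other places in the genome. The region with the most matches, 1212, was on chromosome 19 between 60136008 and 60164125. Regions on chromosomes 15 and 9 followed, with 798 and 619 matches. The 10 neutrophil markers did not separate the groups as a sum. They summed to 51100 and 58400 CPM in the controls and 70600 and 52300 CPM after deletion. Without overlap, 2 of them were higher after deletion and 1 was lower (21.4% and 22.9% of all tested genes). Ltf had 4810 and 4970 CPM in the controls and 10600 and 7570 CPM after deletion. Mmp8 had 397 and 250 against 1280 and 728 CPM, and Elane had 1740 and 2370 against 1230 and 751 CPM. All 10 were tested and 0 were called in the QL test. At an unadjusted p under 0.05, 2 were higher (9.15% of all tested genes) and 1 was lower (3.1%). Their part in the level of Csf3r was not tested.

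The chains of the IL-6 receptor differed in where the deleted libraries lay. Il6ra, the chain that binds IL-6, lies on chromosome 3 from 89673246 to 89717084 and had 18.1 and 19.1 CPM in the controls and 30.5 and 26.3 CPM after deletion. The controls differed only 1.05-fold and the lower deleted library was 1.38-fold above the higher control. For Il6ra the fitted log2 fold change was 0.65 (standard error 0.25, 95% interval 0.08 to 1.22, QL adjusted p = 0.336). Il6st, which encodes gp130, the signaling chain shared by IL-6, LIF and oncostatin M, lies on chromosome 13 from 113265216 to 113297068. It had 32.4 and 73.2 CPM in the controls and 40.5 and 41.5 CPM in the deleted libraries. Both deleted libraries lay between the controls, which differed 2.26-fold. The log2 fold change was -0.33 (standard error 0.35, 95% interval -1.15 to 0.49, QL adjusted p = 0.772), and it turned to 0.35 without control replicate 2.

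Socs3 and Cish are feedback inhibitors: the product of Socs3 blocks signaling through gp130 and the G-CSF receptor, and that of Cish acts on receptors that use STAT5. STAT factors bind the palindrome TTCNNNGAA, which was searched on both strands in windows from 250 bases before to 50 bases after the gene start (RefSeq sequences, GRCm38.p6). The table held a window for 9 of the 10 genes, all but Csf2rb, and the motif was in 3 of them, Cish, Socs3 and Csf2rb2. Among all 27025 genes with a window, 9.55% held it, and it was in 8.3% of the 32851 windows. Cish held 2 copies, at positions 1 and 12 counted from the first base of the transcript, Socs3 held 1 that began 154 bases before the start, and Csf2rb2 held 1 that began 15 bases before it. A match of these letters is a description and not a bound site. The 30 bases around each match are shown with the motif in capitals, at chr9:107296654-107296683 (plus strand), chr11:117969501-117969530 (minus strand) and chr15:78305717-78305746 (minus strand) of GRCm38.p6.
Cish: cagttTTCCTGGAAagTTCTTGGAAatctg
Socs3: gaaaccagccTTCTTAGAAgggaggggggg
Csf2rb2: gtgtccacaaTTCTGAGAAgcaagcaaagc

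Socs3 occupies bases 117827393 to 117831361 of chromosome 11 in mm9. Its level was 15.8 and 64.2 CPM in the controls and 59 and 39.5 CPM in the deleted libraries. The controls differed 4.07-fold, the widest gap within a group among the 10 genes, and both deleted libraries lay between them. On the log2 scale Socs3 differed by 0.35 (standard error 0.56, 95% interval -0.95 to 1.66, QL adjusted p = 0.852). It was 1.67 and called (adjusted p = 0.00656) without control replicate 2, -0.33 without control replicate 1 and -0.09 without Chaf1b-deleted replicate 1, so its direction depended on which library was left out. Cish lies on chromosome 9 from 107198357 to 107205115 and had 40.2 and 69.5 CPM in the controls and 49 and 84.6 CPM after deletion. The groups interleaved, with replicate 2 above replicate 1 in each. The fitted change was 0.29 on the log2 scale (standard error 0.31, 95% interval -0.44 to 1.02, QL adjusted p = 0.778). It was -0.05 without control replicate 1 and -0.02 without Chaf1b-deleted replicate 2. In Cish, 740 exonic bases overlap the antisense genes Gm17040 and Gm17041, and the strand setting of the counting is not given in the sources used here.

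The high level of Il6st and Socs3 in control replicate 2 went along with the sum of monocyte and macrophage markers, but not with each marker. The 9 markers of that list summed to 390 and 1190 CPM in the controls and 654 and 524 CPM after deletion, so control replicate 2 was the highest library and control replicate 1 the lowest, as for Il6st and Socs3. All 9 were tested, 0 were called in the QL test, and none was at 0 in all libraries. At an unadjusted p under 0.05, 4 were higher (9.15% of all tested genes) and 0 lower. Cd14, Emr1, Fcgr1 and Cx3cr1 did not follow that order: these 4 had both deleted libraries above both controls (21.4% of all tested genes). Cx3cr1 had 4.71 and 2.28 CPM in the controls and 7.99 and 9.75 CPM after deletion, so it was lowest in control replicate 2. F13a1, a coagulation factor subunit made by monocytes, had 116 and 515 CPM in the controls and 153 and 111 CPM after deletion. Ccr2 had 102 and 314 against 115 and 86.8 CPM. F13a1 and Ccr2 were thus highest in control replicate 2 but lowest in Chaf1b-deleted replicate 2. Only Csf1r, Ly86 and Cd68 had control replicate 2 highest and control replicate 1 lowest. Csf1r, the receptor for M-CSF, had 59.5 and 158 CPM in the controls and 98.6 and 89.8 CPM after deletion. The part of these cells in the levels of Il6st and Socs3 was not tested. The 10 markers of mast cells and basophils, cells that carry Kit and IL-3 receptors, were led by Cpa3. They summed to 1020 and 699 CPM in the controls and 1020 and 943 CPM after deletion. In the QL test 0 of the 8 tested were called (0.376% of all tested genes). Without overlap, 2 were higher after deletion (Hdc and Tpsb2) and 1 was lower (21.4% and 22.9% of all tested genes). The lower 1 was Ms4a2, with 144 and 108 CPM in the controls and 58.5 and 67.5 CPM after deletion.

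**Figure D3:**
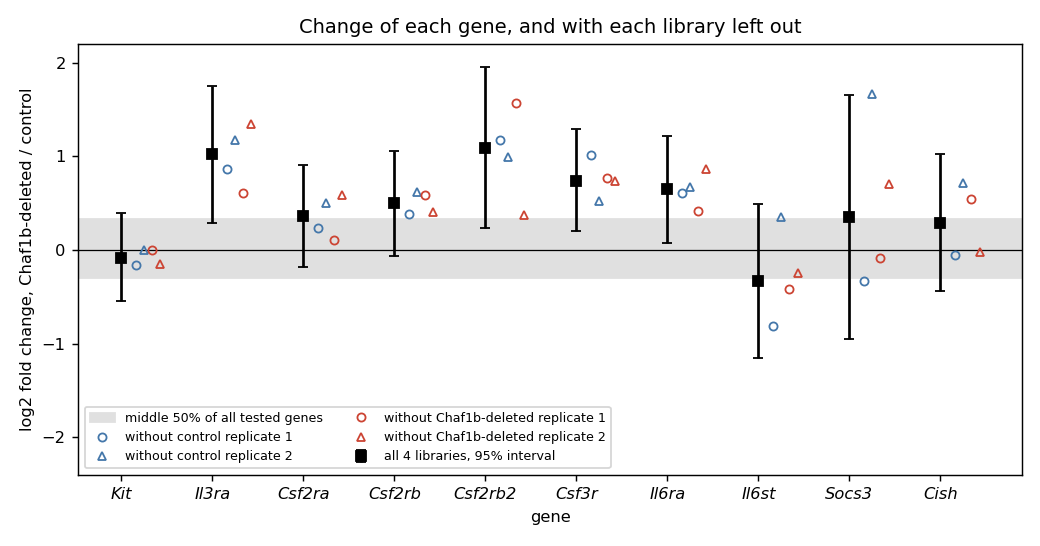
Log2 fold change of the 10 genes between Chaf1b-deleted and control HSPCs. Black squares with bars are the QL fit to all 4 libraries with its 95% interval, open symbols are the fits without 1 library, and the gray band holds the middle 50% of all tested genes, from -0.3 to 0.33. The open symbols of Socs3 spread from -0.33 to 1.67, while all those of Il3ra, Csf2ra, Csf2rb, Csf2rb2, Csf3r and Il6ra lie above 0.

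Downstream of the receptors stand the JAK kinases and STAT factors. Of the 9 genes, 9 were tested and 0 were called in the QL test, which called 0.376% of all genes in either direction. At an unadjusted p under 0.05, 2 were higher (9.15% of all tested genes) and 0 lower (3.1%). The exact test, the likelihood ratio test and DESeq2 also called 0 of them. The median log2 fold change was 0.14. Jak1, the kinase of gp130, had 334 and 366 CPM in the controls and 288 and 401 CPM after deletion, and Jak2, the kinase of the beta chains, had 200 and 261 CPM in the controls and 252 and 237 CPM after deletion. Stat5a had 70 and 62.2 CPM in the controls and 54.6 and 60.7 CPM after deletion (log2 fold change -0.18, QL adjusted p = 0.791), and Stat5b had 105 and 108 against 106 and 125 CPM (log2 fold change 0.14, adjusted p = 0.827). Jak3, the kinase of the common gamma chain, had 28.9 and 39.2 CPM in the controls and 45 and 64.2 CPM after deletion without overlap (log2 fold change 0.69, adjusted p = 0.294), and Tyk2 had a log2 fold change of 0.19.

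Among the 15 other SOCS genes and inhibitors, 0 were called in the QL test. Socs1 and Socs2 were the 2 with an unadjusted p under 0.05, both higher (9.15% of all tested genes). The exact and likelihood ratio tests each called 1 of the 15 (Socs2) and DESeq2 called both, next to 3.25%, 3.53% and 2.86% of all genes called higher. Socs2, another STAT5-induced inhibitor, had 16.4 and 13.9 CPM in the controls and 36.6 and 33.5 CPM after deletion (log2 fold change 1.24, standard error 0.24, QL adjusted p = 0.101), and it was called without Chaf1b-deleted replicate 2 (1.41, adjusted p = 0.0417). Both deleted libraries were more than 2-fold above both controls. Socs1, the inhibitor of interferon and JAK signaling, had 10.8 and 10.5 CPM in the controls and 31 and 18.2 CPM after deletion, with a log2 fold change of 1.26 (QL adjusted p = 0.203). It was 0.7 without Chaf1b-deleted replicate 1, and 1.68 and called (adjusted p = 0.0293) without Chaf1b-deleted replicate 2. Pias3, an inhibitor of STAT3, had a log2 fold change of 0.43. The median of the 15 genes was 0.02.

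Of 15 target genes of STAT5 and STAT3, 0 were called in the QL test, but 10 had an unadjusted p under 0.05, all in the upward direction. Over all tested genes that share was 9.15%. This list, like the 10 genes and the other lists, was chosen with earlier results of these data known. Such shares therefore do not measure enrichment. In 10 of the 15, the deleted pair exceeded both controls, and in 2 it fell short of both, where the shares over all tested genes were 21.4% and 22.9%. The exact and likelihood ratio tests each called 2 of the 15 and DESeq2 called 4, next to 3.25%, 3.53% and 2.86% of all genes called higher. The median log2 fold change was 0.78. Junb, an AP-1 subunit, had 71.3 and 120 CPM in the controls and 253 and 185 CPM after deletion (log2 fold change 1.24, QL adjusted p = 0.172), and Lrg1, a secreted glycoprotein of neutrophils, had 59.6 and 92.4 against 191 and 139 CPM (1.17, adjusted p = 0.172). Without control replicate 2 both were called, at 1.65 and 1.5 (adjusted p = 0.0141 and 0.0287). Ccnd1, a G1 cyclin, had 1.45 and 7.6 against 20.2 and 10.7 CPM, a log2 fold change of 1.83 (QL adjusted p = 0.344) that was 1.09 without control replicate 1, 1.16 without Chaf1b-deleted replicate 1 and 3.45 (called, adjusted p = 3.06e-06) without control replicate 2. Not all targets went that way. Pim1, a survival kinase induced by STAT5, had 287 and 495 CPM in the controls and 268 and 228 CPM after deletion (log2 fold change -0.62, QL adjusted p = 0.481). Immediate early and stress genes differed in the same direction as this list. Of the 12 whose sums are given above with the alpha chains, 4 were called higher in the QL test (Fosb, Jun, Hspa1a and Hspa1b). Over all tested genes that share was 0.37%. The part of these genes in the levels of the STAT targets was not tested.

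The 17 adaptors and kinases next to KIT and the beta chains had a median log2 fold change of 0.09, with 0 called in the QL test. At an unadjusted p under 0.05, 3 were higher (9.15% of all tested genes) and 0 lower (3.1%). Next to 3.25%, 3.53% and 2.86% of all genes called higher, the exact test, the likelihood ratio test and DESeq2 each called the same 1 gene. That gene was Src, a kinase that had 1.76 and 2.01 CPM in the controls and 4.76 and 7.63 CPM after deletion (log2 fold change 1.72, QL adjusted p = 0.154). Sh2b2, an adaptor, had 31.9 and 26.2 CPM in the controls and 45.9 and 41.9 CPM after deletion (log2 fold change 0.62, QL adjusted p = 0.329).

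Most ligand transcripts were scarce in these cells. Of 11 ligand genes, 6 passed the filter, and Kitl, Il3, Il5, Il11, Csf2 and Csf3 were under 1 CPM in every library. In the QL test 0 were called, and 3 (Csf1, Lif and Csf2) had an unadjusted p under 0.05, all higher (9.15% of all tested genes). The exact and likelihood ratio tests each called 2 and DESeq2 called 1, next to 3.25%, 3.53% and 2.86% of all genes called higher. Il6 had 13.3 and 18.9 CPM in the controls and 18.7 and 11 CPM after deletion (log2 fold change -0.06, QL adjusted p = 0.968). Csf1, which encodes M-CSF, had 19.9 and 16 against 35.1 and 42.2 CPM (1.12, adjusted p = 0.113), and Lif had 10.6 and 10.9 against 19.2 and 20.9 CPM (0.92, adjusted p = 0.204). Csf2, which encodes GM-CSF, had 2 counts in each control and 19 and 10 counts in the deleted libraries, all under 1 CPM (QL adjusted p = 0.2).

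Of 20 other cytokine receptors of progenitors, 19 were tested and 1, Flt3, was called higher in the QL test (0.37% of all tested genes). At an unadjusted p under 0.05, 4 were higher (9.15% of all tested genes) and 0 lower (3.1%). Both deleted libraries lay above both controls for 9 and below for 3 (21.4% and 22.9% of all tested genes). The exact test, the likelihood ratio test and DESeq2 each called 3, next to 3.25%, 3.53% and 2.86% of all genes called higher. The call of Flt3 was lost with the size factors of DESeq2 (adjusted p = 0.0503), with library size only (0.0585), with at least 10 counts required in every library (0.0651), with the replicate block (0.096) and at the stricter threshold of 2-fold and an adjusted p under 0.01, while leaving out any 1 library gave log2 fold changes of 2 to 2.17. Il1r1, the receptor for IL-1, had 11.1 and 10.4 CPM in the controls and 20.4 and 33.9 CPM after deletion, with a log2 fold change of 1.34 (QL adjusted p = 0.114), and was called without Chaf1b-deleted replicate 1 (1.58, adjusted p = 0.0465). Il7r, the IL-7 receptor alpha chain, had 2.77 and 6.73 against 12.7 and 9.26 CPM (1.25, adjusted p = 0.339). It was 0.75 without control replicate 1, and 2.01 and called (adjusted p = 0.0326) without control replicate 2. The median of this list was 0.33, next to 0.43 for the 10 genes.

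**Figure D4:**
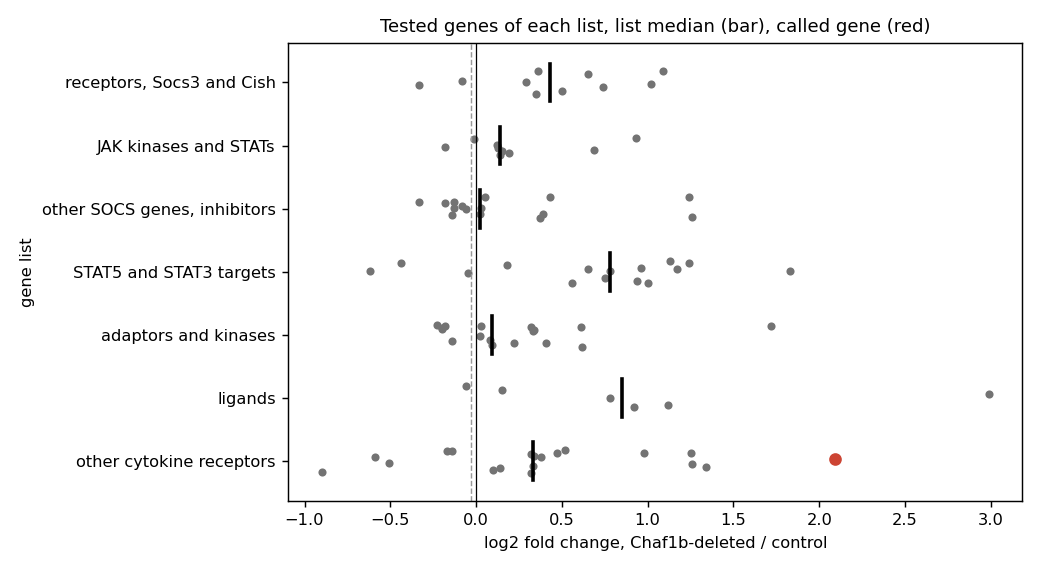
Log2 fold change between Chaf1b-deleted and control HSPCs of each tested gene in 7 lists of cytokine signaling genes. Black bars are list medians, the dashed line is the median of all tested genes (-0.03), gray points were not called in the QL test, and the red point is Flt3 at 2.09. The medians lie between 0.02 for the other SOCS genes and inhibitors and 0.85 for the 6 tested ligands.

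Among 9295 genes with a mean of at least 10 CPM, those whose centered log2 levels over the 4 libraries lay nearest to Kit were Rmnd5a, Atp9b and Uhmk1, at Euclidean distances of 0.0245 to 0.0353. Nearest to Csf2rb were Tnrc18, Ccrn4l and Ube2d2, at 0.0427 to 0.0693. Nearest to Socs3 were Tgfbi, Amica1 and Cgnl1, at 0.207 to 0.346, and Tgfbi had 56.3 and 224 CPM in the controls and 183 and 118 CPM after deletion, in the same order of libraries as Socs3. These distances rest on 4 libraries and describe likeness only.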

How the data were processed

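RNA-seq of total RNA from 4 mouse HSPC libraries was analyzed, 2 for MIGR1 control and 2 for Chaf1b-deleted cells, grouped by their sample titles. The authors aligned reads to mm9 with STAR and counted them per gene with HTSeq, and the deposited values are raw counts, 1 library per table. The annotation release and strand setting are not given in the sources used here. Rows that name no gene were left out. Reads outside genes made up 35.8% to 48.3% and ambiguous reads 2.05% to 2.76% of uniquely aligned reads. Of 43629 identifiers, 33068 were named from the NCBIM37 annotation (mm9).

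Counts were tested with edgeR 4.0.16 in R 4.3.3 (limma 3.58.1): expression filter with a minimum count of 10, TMM factors (0.925 to 1.06), and glmQLFit and glmQLFTest without a covariate, two-sided, with Benjamini-Hochberg adjustment over 16500 genes. Intervals are 95% intervals of the fitted log2 fold change. A call needed 1.5-fold and an adjusted p under 0.05. CPM values in the text are counts over the total on genes, and RPKM divides these by the exon length. Wilson 95% intervals of the CPM of a member reach at most 13.6% to either side and cover counting error only. The method was also run on simulated counts. These held larger changes than those of the 10 genes, a common dispersion and no outlying library. They therefore do not show its power or error for changes as small as these. Alternatives were 3 other scalings, 2 other filters, edgeR's exact and likelihood ratio tests, DESeq2 1.42.0, the replicate number as a block, 2 other thresholds (2-fold with adjusted p under 0.01, and no fold threshold), the beta chain pair summed, and each library left out. Members, lists and rules were chosen with earlier results of these data known. Named genes are the 10 members, Chaf1b, called genes of each list and the 3 largest non-overlapping changes per list, and the 3 nearest patterns of 3 members. Some genes that the rule names are not reported here. Marker genes, Jak1, Jak2, Stat5a, Stat5b, Pim1 and Il6 were named after their values were seen. Chaf1a, also in the rule, had 120 and 84.9 CPM in the controls and 80.4 and 68.4 CPM after deletion (adjusted p = 0.569).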

Additional observations from a re-analysis of the deposited data

How the results depend on the processing

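Leaving out a library reduces its group to 1 sample, whose spread is then assumed to equal that of the other group. The number of the 10 genes called higher was 0 in the QL test, 2 without the filter on low counts, and 0 to 1 with each library left out (1 without control replicate 2, Socs3, and 1 without Chaf1b-deleted replicate 1, Csf2rb2). For the JAK kinases and STAT factors it was 0, but 1 without the filter and 0 to 1 with a library left out. For the other SOCS genes and inhibitors it was 0, but 2 without the filter, 1 in the exact test, 1 in the likelihood ratio test, 2 in DESeq2 and 0 to 2 with a library left out. For the STAT targets it was 0, but 6 without the filter, 2 in the exact test, 2 in the likelihood ratio test, 4 in DESeq2 and 0 to 3 with a library left out. For the adaptors and kinases it was 0, but 1 without the filter and 1 in each of the exact test, likelihood ratio test and DESeq2. For the ligands it was 0, but 2 without the filter, 2 in the exact test, 2 in the likelihood ratio test and 1 in DESeq2. For the other receptors it was 1 (Flt3), but 0 with the size factors of DESeq2, 0 with library size only, 0 with at least 10 counts required in every library, 0 with the replicate block, 0 at 2-fold and an adjusted p under 0.01, 4 without the filter, 3 in the exact test, 3 in the likelihood ratio test, 3 in DESeq2, and 1 to 2 with a library left out. With a library left out, log2 fold changes turned for Kit (-0.16 to 0.00116), Il6st (-0.81 to 0.35), Socs3 (-0.33 to 1.67) and Cish (-0.05 to 0.72). Over all genes, the QL test called 61 higher and 1 lower, against 808 and 79 without the filter, 3 and 0 with at least 10 counts in every library, 27 and 1 with the size factors, 30 and 1 with library size only, 52 and 1 with upper quartile scaling, 537 and 37 in the exact test, 583 and 40 in the likelihood ratio test, 472 and 34 in DESeq2, and 0 and 0 at the stricter threshold. With libraries left out it called 125 to 331 higher and 6 to 42 lower. The cause of these differences was not tested. The replicate numbers are not said to mark a shared origin. Same-numbered libraries deviated together with a correlation of only 0.0133, which with 2 libraries per group cannot decide whether the numbers pair them. Xist had 26 counts in control replicate 1 and 7905 in Chaf1b-deleted replicate 1, so these did not come from the same animals. With the replicate block 14 genes were called higher and 0 lower, the call of Flt3 was lost, 0 of the 10 genes were called, and their median log2 fold change was 0.56. Csf2 gave no value without Chaf1b-deleted replicate 1, since it then fell under the filter. Of the other values by setting, 404 kept their direction and their side of the threshold, 44 passed it newly, 8 lost it and 7 turned. Genes under 3 counts in a library, such as Csf2 in the controls, are beyond what this depth resolves.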
